A study of Mus musculus with 6 samples.

Results

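The regions described here carried peaks of crotonylated and acetylated lysine 9 of histone H3 (H3K9cr and H3K9ac) that were wide but low. They were chosen from the deposited peak lists of 4 precipitated libraries. Overlapping peaks were merged into 31127 regions, of which 22972 had a peak in all 4 lists and are called shared. A shared region was kept when, in each list, its longest peak was at least 2000 bp and under 4000 bp long and the pileup of that peak was below the median of the list. Pileup is the coverage the authors' peak caller gives at the summit, the highest point of a peak. There were 199 such wide low-signal regions, or 0.866% of the shared regions. They made up 4.21% of the 4729 shared regions that met the length limits in every list. A further 188 of those wide regions were below the median in some lists and not in others. For comparison, 4342 wide strong regions met the same length limits with a pileup at or above the median in every list. Another 7707 narrow weak regions had no peak of 2000 bp or more and a pileup below the median in every list.

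All libraries came from P19 cells, a mouse embryonal carcinoma line, kept in its serum-containing proliferation medium with no treatment or genetic change named. Chromatin was precipitated without crosslinking (native ChIP) with 1 antibody to H3K9cr or 1 antibody to H3K9ac, so an antibody and its mark cannot be told apart. The groups were 2 H3K9cr libraries and 2 H3K9ac libraries, described as biological replicates, and 2 input libraries that are not analysed here. Whether the replicates came from separate cultures, and how many reads each library holds, is not given in the sources used here.

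Acetylation and crotonylation of H3 lysine 9 are placed by acyltransferases and removed by deacylases, and both are found at active promoters and enhancers. Bromodomain proteins read mainly the acetyl group, and YEATS domain proteins bind the crotonyl group as well. In pluripotent cells, CpG-rich promoters of developmental transcription factors are commonly held silent or poised by Polycomb complexes, which place a methyl mark on lysine 27 of H3. That mark, transcription and chromatin states other than the 2 acyl marks were not measured in the files analysed here.

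The promoters of genes with a wide low-signal region at their start covered a broad range of CpG density. The printed sequences show the 2 promoters with the highest, 2 near the middle and 2 with the lowest ratio of observed to expected CpG, so that the range can be read directly. Each is the 250 bases before the gene start from RefSeq (GRCm38.p6), 5' to 3', with every CpG in capitals. Only promoters whose start lay within 1 kb of the middle of the region's 4 summits were considered.
Nkx6-1 promoter (chr5:101664712-101664961, minus strand): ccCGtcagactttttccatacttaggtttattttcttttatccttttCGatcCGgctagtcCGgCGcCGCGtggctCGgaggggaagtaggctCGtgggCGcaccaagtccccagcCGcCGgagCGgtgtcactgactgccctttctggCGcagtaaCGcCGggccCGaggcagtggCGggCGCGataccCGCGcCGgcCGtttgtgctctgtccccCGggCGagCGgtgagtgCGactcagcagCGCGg
Nav1 promoter (chr1:135585356-135585605, minus strand): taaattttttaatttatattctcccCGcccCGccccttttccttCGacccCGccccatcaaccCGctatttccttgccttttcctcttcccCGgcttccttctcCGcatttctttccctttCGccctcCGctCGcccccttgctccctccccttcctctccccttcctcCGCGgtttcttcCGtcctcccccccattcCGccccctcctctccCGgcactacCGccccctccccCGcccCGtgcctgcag
Irx2 promoter (chr13:72628570-72628819, plus strand): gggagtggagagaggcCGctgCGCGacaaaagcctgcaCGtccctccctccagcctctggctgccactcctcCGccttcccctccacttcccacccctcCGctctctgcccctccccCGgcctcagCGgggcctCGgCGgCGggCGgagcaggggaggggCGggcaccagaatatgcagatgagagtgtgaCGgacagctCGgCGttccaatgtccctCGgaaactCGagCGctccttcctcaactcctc
Inhbb promoter (chr1:119422249-119422498, minus strand): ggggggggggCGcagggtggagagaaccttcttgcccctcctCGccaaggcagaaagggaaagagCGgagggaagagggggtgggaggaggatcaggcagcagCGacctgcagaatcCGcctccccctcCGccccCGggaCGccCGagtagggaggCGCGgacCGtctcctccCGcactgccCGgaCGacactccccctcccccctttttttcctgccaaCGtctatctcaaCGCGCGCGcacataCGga
Gm46725 promoter (chr2:18690732-18690981, minus strand): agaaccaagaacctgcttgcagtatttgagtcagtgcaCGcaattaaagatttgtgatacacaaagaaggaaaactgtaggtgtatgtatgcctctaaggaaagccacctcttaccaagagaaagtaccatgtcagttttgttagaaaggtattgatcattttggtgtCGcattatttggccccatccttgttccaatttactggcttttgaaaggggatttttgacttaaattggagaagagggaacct
Elfn1 promoter (chr5:139907616-139907865, plus strand): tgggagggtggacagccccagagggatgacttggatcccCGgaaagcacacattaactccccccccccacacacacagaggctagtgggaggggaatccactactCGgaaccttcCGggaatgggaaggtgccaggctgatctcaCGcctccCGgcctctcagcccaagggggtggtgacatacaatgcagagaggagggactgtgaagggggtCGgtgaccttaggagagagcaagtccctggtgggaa

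The sequence before the start of Nkx6-1, a homeodomain factor of the ventral neural tube and pancreatic beta cells, held 30 CpG in 250 bases. That of Nav1, a neuronal microtubule-associated protein, held 18. Irx2, an Iroquois homeobox factor, had 19, and Inhbb, the beta B subunit of activin and inhibin, had 21. The sequences of Gm46725 and of Elfn1, a synaptic leucine-rich repeat protein, held 2 and 6 CpG. Over the 300-base promoters of the table, which add the first 50 bases after the start, the observed to expected ratio ranged from 1.18 at Nkx6-1 to 0.271 at Elfn1.

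The 89 promoters linked to wide low-signal regions, from 81 genes, had a median observed to expected CpG ratio of 0.710 (quartiles 0.601 and 0.869). The median was 0.860 over the 4151 promoters at wide strong regions (quartiles 0.721 and 0.975). It was 0.538 over 1334 promoters at narrow weak regions and 0.567 over all 21262 coding promoters in the table. The median at all shared regions was 0.775 (12304 promoters). CpG density at wide low-signal regions thus lay between those at wide strong and narrow weak regions, and a little below that at all shared regions. The ratio exceeded 0.6 in 75.3% of promoters at wide low-signal regions, in 88.6% at wide strong regions and in 40.6% at narrow weak regions. At all shared regions it did so in 75.7%, close to the share at wide low-signal regions. GC content differed less, with medians of 64.3% at wide low-signal, 65.0% at wide strong, 59.3% at narrow weak and 62.3% at all shared regions. Promoters of neighbouring genes and alternative starts of 1 gene share sequence, so these shares are descriptions and were not tested.

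Short motifs were counted on both strands of the 300-base promoters, and motifs were allowed to overlap each other. TATAAA, the core of the TATA box, stood in 11 promoters at wide low-signal regions (12.4%), against 4.96% at wide strong regions, 8.17% at narrow weak regions and 12.6% of all promoters. GGGCGG, a GC box, stood in 74.2% at wide low-signal regions, 74.1% at wide strong regions, 58.3% at narrow weak regions and 46.2% of all promoters. CCAAT stood in 34.8%, 36.0%, 35.4% and 38.2% of the same sets. CACGTG, an E-box, was found in 4 promoters at wide low-signal regions (4.49%), against 10.6% at wide strong regions, 8.70% at narrow weak regions and 7.84% of all promoters. At all shared regions the shares were 5.91% for TATAAA, 69.0% for GGGCGG, 37.4% for CCAAT and 10.2% for CACGTG. The share with TATAAA at wide low-signal regions was close to that of all promoters. Their shares with GGGCGG and CCAAT were close to those at wide strong regions. None of these differences was tested, and the counts for TATAAA and CACGTG are small. A match of letters is not a bound site.

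The values that selected the regions are given as descriptions, with no test. The median of the longest peak at wide low-signal regions was 2562 and 2551 bp in the H3K9cr libraries (replicates 1 and 2), and 2424 and 2588 bp in the H3K9ac libraries. The lowest value was 2000 bp and the highest 3943 bp. The 4 libraries gave like lengths, as the same limits held in each, with H3K9ac replicate 1 the shortest. The median pileup was 48.8 and 48.7 in the H3K9cr libraries and 35.0 and 53.7 in the H3K9ac libraries, against list medians of 66.7, 66.3, 56.0 and 77.1. Pileups need not be on 1 scale in all libraries, so they were set only against other peaks of the same list, where the regions' median percentiles were 42.3, 42.5, 38.0 and 41.5.

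Fold enrichment, the ratio of summit pileup to local background from the authors' peak caller, follows pileup closely and is also a description, read here only against other peaks of the same list. The list medians were 19.7 and 18.7 in the H3K9cr libraries and 18.6 and 21.9 in the H3K9ac libraries, and 129 of the 199 regions were below them in all 4. Its median at wide low-signal regions was 14.6 and 13.7 in the H3K9cr libraries and 12.3 and 15.1 in the H3K9ac libraries. At wide strong regions it was 71.7 in both H3K9cr libraries, and 57.9 and 80.9 in the H3K9ac libraries. At narrow weak regions it was 9.59 and 9.25 in the H3K9cr libraries, and 7.36 and 9.52 in the H3K9ac libraries. These differences between classes follow from the limits on length and pileup that defined them. Summit pileup per kb of the longest peak was 18.2 and 18.3 in the H3K9cr libraries and 13.8 and 19.8 in the H3K9ac libraries, against 91.1, 92.6, 68.0 and 106 at wide strong regions and 42.8, 41.7, 36.3 and 46.6 at narrow weak regions.

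**Figure D1:**
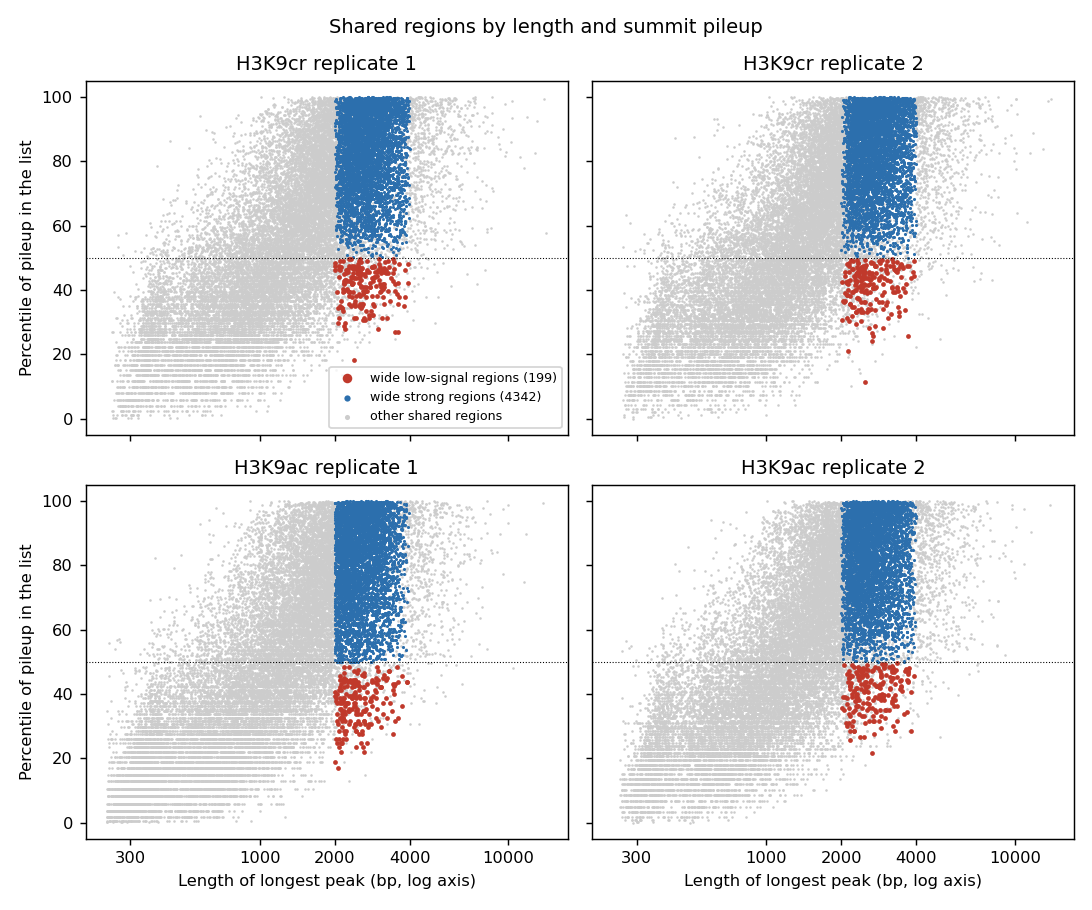
Shared regions in each of the 4 libraries, with the length of the longest peak on a log axis (bp) against the percentile of its pileup in that list. The 199 wide low-signal regions (red) fill the sparse corner below the dotted median line, under the 4342 wide strong regions (blue), and all other shared regions are grey.

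The limits cut through a continuous range. The shortest peaks just inside the lower length limit were 2000 bp at a region near Neurog2, 2002 bp at Zfhx3 and 2003 bp at Tafa2, and the nearest regions outside it were 1995 bp at Dlgap3, 1994 bp at Wnt7b and 1994 bp at Barhl1. At the upper limit, Foxl2 (3943 bp), Nr5a2 (3932 bp) and Casz1 (3929 bp) were inside, while Ddn (4000 bp), Sox1 (4014 bp) and Htr1b (4055 bp) were outside. The pileups nearest to the limit were 98.9% of the list median at Erbb4, 98.7% at Bcl6 and 98.6% at Mab21l2, while Bmp6, Rb1 and Mafa stood at 100% and were outside. Developmental genes thus stood on both sides of the limits.

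Position relative to genes was not used in choosing the regions. The summit of the longest peak lay within 1 kb of a protein-coding gene start at 50.3% and 48.2% of wide low-signal regions in the H3K9cr libraries, and at 51.3% and 51.8% in the H3K9ac libraries. This gave 50.4 ± 1.56% (SD, n = 4 libraries). At wide strong regions the share was 84.7%, 84.9%, 84.7% and 84.7% in the same libraries. At narrow weak regions it was 20.8%, 20.8%, 20.7% and 20.7%. Over all shared regions it was 55.0%, 54.9%, 54.8% and 54.8%, a little above the share at wide low-signal regions in every library. Fewer summits of wide low-signal than of wide strong regions were at a start in 4 of 4 libraries, and more than of narrow weak regions in 4 of 4. An exact two-sided sign-flip permutation test over the 4 libraries gave p = 0.13 for each comparison, the smallest p that 4 libraries allow. The libraries share the same regions, so they vary only in where the peak caller put the summit. The share of wide low-signal regions at a start averaged 49.2 ± 1.42% in H3K9cr and 51.5 ± 0.36% in H3K9ac libraries (SD, n = 2 each; exact permutation p = 0.33, the smallest this design allows).

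The remaining summits lay more often in gene bodies than outside genes. A coding gene body beyond 1 kb of a start held 32.2 ± 1.23% of summits of wide low-signal regions (SD, n = 4 libraries), against 9.20% at wide strong regions and 36.1% at narrow weak regions. Summits outside coding genes made up 17.5 ± 0.63% at wide low-signal regions, 6.06% at wide strong regions and 43.1% at narrow weak regions. Over all shared regions, 21.5% of summits lay in gene bodies and 23.6% outside coding genes. The longest peak covered a coding gene start at 63.8% and 64.3% of wide low-signal regions in the H3K9cr libraries and at 63.8% and 64.8% in the H3K9ac libraries, against a mean of 87.5% at wide strong regions of the same length limits and 13.7% at narrow weak regions. The median distance from summit to the nearest start was 992 and 1047 bp in the H3K9cr libraries and 991 and 977 bp in the H3K9ac libraries, while no wide strong median exceeded 381.5 bp and no narrow weak median was below 10685 bp.

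**Figure D2:**
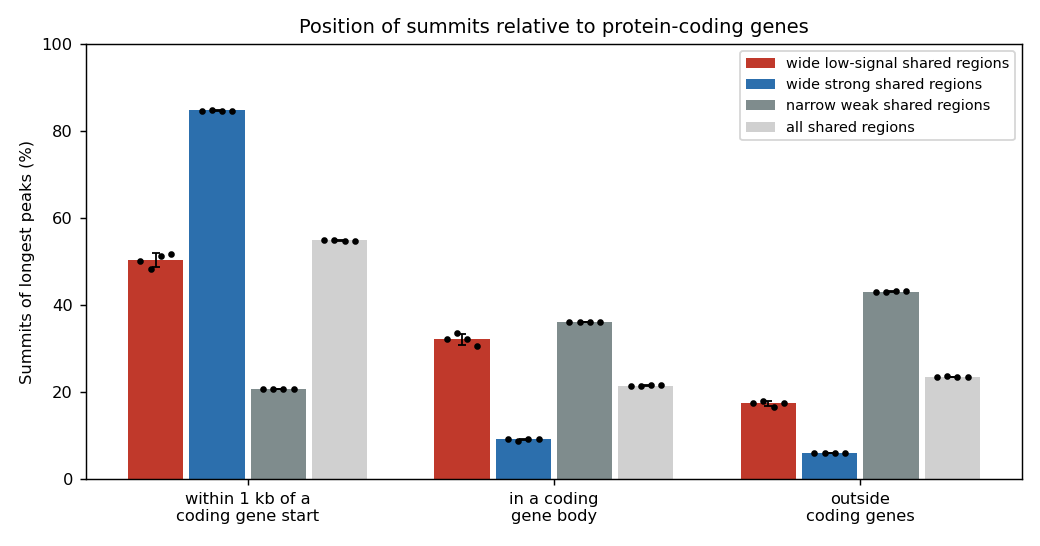
Share of longest-peak summits (%) within 1 kb of a coding gene start, in a coding gene body or outside coding genes, for each class of shared region. Bars are means of 4 libraries, points are libraries and error bars are SD. Wide low-signal regions (red, 50.4% at starts) lie between wide strong regions (84.7%) and narrow weak regions, and near all shared regions (54.9%).

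Each region was also placed by the middle of its 4 summits. By this measure 108 of the 199 (54.3%) were at a coding gene start, 58 (29.1%) in a gene body and 33 (16.6%) outside. In the same order, the shares over all shared regions were 55.0%, 21.4% and 23.5%. Median longest peaks in these places were 2588, 2561.5 and 2460 bp and median pileup percentiles 40.5, 42.4 and 41.8, values that the limits kept within a narrow range. Only 11 regions (5.53%) were over 50 kb from any coding start. The farthest lay 243843 bp from Tex13c3, and the next farthest were 214802 bp from Pou3f1, 204060 bp from Meis2 and 195975 bp from Nfia. The last 3 genes encode transcription factors of neural or limb development. Where the strand was known, the middle summit stood a median of 203 bp downstream of the start at 80 wide low-signal regions, 317.5 bp downstream at 3113 wide strong regions and 129 bp downstream at 1206 narrow weak regions. It was downstream in 68.8%, 79.8% and 68.7% of the same sets.

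Developmental transcription factors made up a larger share of the genes with a wide low-signal region at their start than of genes with any shared region there. Of all 21896 protein-coding genes, 109 had such a region at the start (0.498%), and 12978 had a shared region of any kind, so 0.840 of every 100 genes with a shared region had a wide low-signal one. Among developmental transcription factors known as Polycomb targets the count was 15 of 109 genes, or 18.8 of every 100 with a shared region. It was 4 of 30 proneural factors (21.1 of every 100) and 2 of 39 Hox genes (8.33 of every 100). Together these 3 lists gave 21 of 178 genes (11.8%), which was 19.3% of the 109 genes. The same 178 genes had a wide strong region at 9 starts (5.06%, against 19.5% of all coding genes). They had a narrow weak region at 52 (29.2%, against 7.28%), so narrow weak regions were also more frequent at these genes than at all genes. The lists were chosen with earlier results of these data known, and no set test was made.

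Genes of basic cell functions mostly had wide strong regions or other shared regions. Of 241 genes for cytosolic ribosomal proteins, proteasome subunits, oxidative phosphorylation and the cell cycle, 233 had a shared region at the start, 121 (50.2%) a wide strong region and 1 a wide low-signal region. Of all coding genes, 59.3% had a shared region at the start and 19.5% a wide strong region. None of the 77 ribosomal protein genes had a wide low-signal region, while 57 (74.0%) had a wide strong region. There was none either among 39 proteasome and 60 cell cycle genes. The 1 gene with a wide low-signal region was 0.429 of every 100 with a shared region, against 0.840 over all genes. Counts of 0 or 1 are too small to set these lists apart from all genes.

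**Figure D3:**
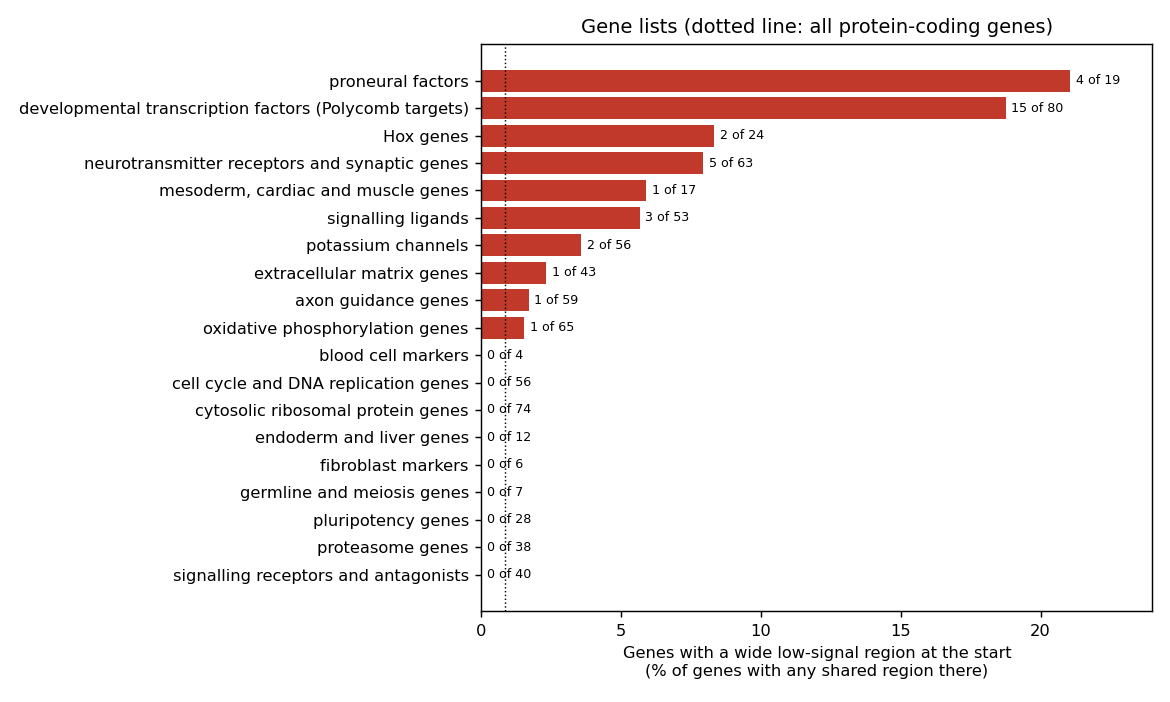
Genes with a wide low-signal region at the start as a percentage of genes with any shared region there, for 19 gene lists, with the counts beside each bar. The dotted line marks all protein-coding genes (0.840%). Proneural factors (4 of 19) and developmental transcription factors (15 of 80) stand highest. Ribosomal protein, proteasome, cell cycle and pluripotency genes are at 0, counts too small to set apart from the dotted line.

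Foxl2, a forkhead factor of ovarian granulosa cells and the eyelid, had the longest peaks of all wide low-signal regions (chr9:98954405-98958347). They were 3930 and 3943 bp in the H3K9cr libraries and 3896 and 3747 bp in the H3K9ac libraries. Fold enrichment there was 21.5 and 12.9 in the H3K9cr libraries and 17.2 and 23.6 in the H3K9ac libraries. As the longest region under a limit of 4000 bp in every list, it had little room to differ in length between libraries. Fold enrichment was above the list median in H3K9cr replicate 1 and H3K9ac replicate 2 only. Lhx2, a LIM homeobox factor of forebrain and eye (chr2:38349764-38353072), had fold enrichments of 20.0 and 20.7 in the H3K9cr libraries and 18.2 and 21.97 in the H3K9ac libraries, over peaks of 3092, 2844, 3257 and 2885 bp. Nkx6-1 (chr5:101661780-101666257), whose CpG-rich promoter is printed above, had 19.4 and 18.7 in the H3K9cr libraries and 15.5 and 24.4 in the H3K9ac libraries. Both genes were close to the list medians, and both were below it in H3K9ac replicate 1.

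Twist1, a bHLH factor of mesenchyme and neural crest (chr12:33955504-33959082), was less even. Its longest peak measured 3128 and 2236 bp in the H3K9cr libraries, and 3411 and 3524 bp in the H3K9ac libraries. Fold enrichment was 7.68 and 14.5 in the H3K9cr libraries and 12.4 and 13.4 in the H3K9ac libraries. H3K9cr replicate 2 had the shortest peak, and the lengths of the marks did not overlap. The peak was split in 2 in that library, where both parts together covered 3066 bp, against 3128 bp in H3K9cr replicate 1. Fold enrichment was below the list median in all 4 libraries.

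Sox21, a SoxB2 factor of neural progenitors (chr14:118234877-118237529), had the lowest signal of the 199 regions. Its fold enrichment was 7.45 and 5.91 in the H3K9cr libraries and 6.97 and 8.84 in the H3K9ac libraries, over peaks of 2384, 2488, 2064 and 2653 bp. The pileup stood at the 18.3, 11.5, 16.9 and 21.8 percentile of the lists, a mean of 17.2, while the next lowest mean was 26.0 near Msx1. Irx1, an Iroquois homeobox factor, had 2 wide low-signal regions. Its start was not in the promoter table used, so either end of its gene record counted as a start. The 2 regions may therefore lie at opposite ends of the gene, 1 of them at its 3' end. The longest peaks of the first (chr13:71956742-71960361) measured 3491 and 2130 bp in the H3K9cr libraries and 3583 and 2179 bp in the H3K9ac libraries. They were long in replicate 1 of each mark and short in replicate 2, where the peak was split in 2. Both parts together covered 3167 bp in H3K9cr replicate 2 and 3209 bp in H3K9ac replicate 2. The longest peaks of the second (chr13:71961372-71964784) measured 3160 and 3352 bp in the H3K9cr libraries and 2268 and 3169 bp in the H3K9ac libraries. Only H3K9ac replicate 1 was short, and there the peak was split in 2, with 2907 bp covered by both parts.

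The other Polycomb-target factors with a wide low-signal region were Gata3, Pax2, Foxf1, Pax6, Six2, Irx2, Lhx5, En1 and En2, whose values were given after they had been seen. Pax6, a regulator of eye and forebrain (chr2:105666579-105670513), had fold enrichments of 9.71 and 10.2 in the H3K9cr libraries and 12.0 and 11.1 in the H3K9ac libraries. Gata3, a zinc finger factor of T cells, ear and trophoblast (chr2:9876568-9879595), had 17.8 and 12.7 in the H3K9cr libraries and 11.6 and 8.4 in the H3K9ac libraries. Both were below the list median in all 4 libraries. The paralogues En1 and En2, which pattern midbrain and hindbrain, had 11.9 and 10.1 (En1) and 10.7 and 6.64 (En2) in the H3K9cr libraries, and 7.52 and 11.1 (En1) and 7.73 and 7.42 (En2) in the H3K9ac libraries. All of these lay below the list medians.

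The 4 proneural factors are bHLH proteins that start neuronal differentiation. Atoh1 (chr6:64727369-64730778) had 2886 and 3055 bp in the H3K9cr libraries and 2828 and 3261 bp in the H3K9ac libraries. The lengths of the marks overlapped. Its fold enrichment was 12.9 in both H3K9cr libraries and 13.2 and 14.7 in the H3K9ac libraries. Neurod2 had 10.5 and 12.2 in the H3K9cr libraries and 9.22 and 12.0 in the H3K9ac libraries. Neurog2 (chr3:127632246-127634994) had 11.3 and 12.7 in the H3K9cr libraries and 10.8 and 15.1 in the H3K9ac libraries. These 3 genes were below the list median in every library.

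The Hox genes with a wide low-signal region were Hoxb9 and Hoxd8, which specify position along the body axis. Hoxb9 (chr11:96269451-96273012) had fold enrichments of 16.9 and 14.8 in the H3K9cr libraries and 14.99 and 15.5 in the H3K9ac libraries. Hoxd8 (chr2:74703861-74706575) had 18.4 and 16.4 in the H3K9cr libraries and 11.6 and 13.1 in the H3K9ac libraries. Both were below the list median in every library. Narrow weak regions were the more common kind at Hox genes, at 16 of the 39 (41.0%, against 7.28% of all coding genes).

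**Figure D4:**
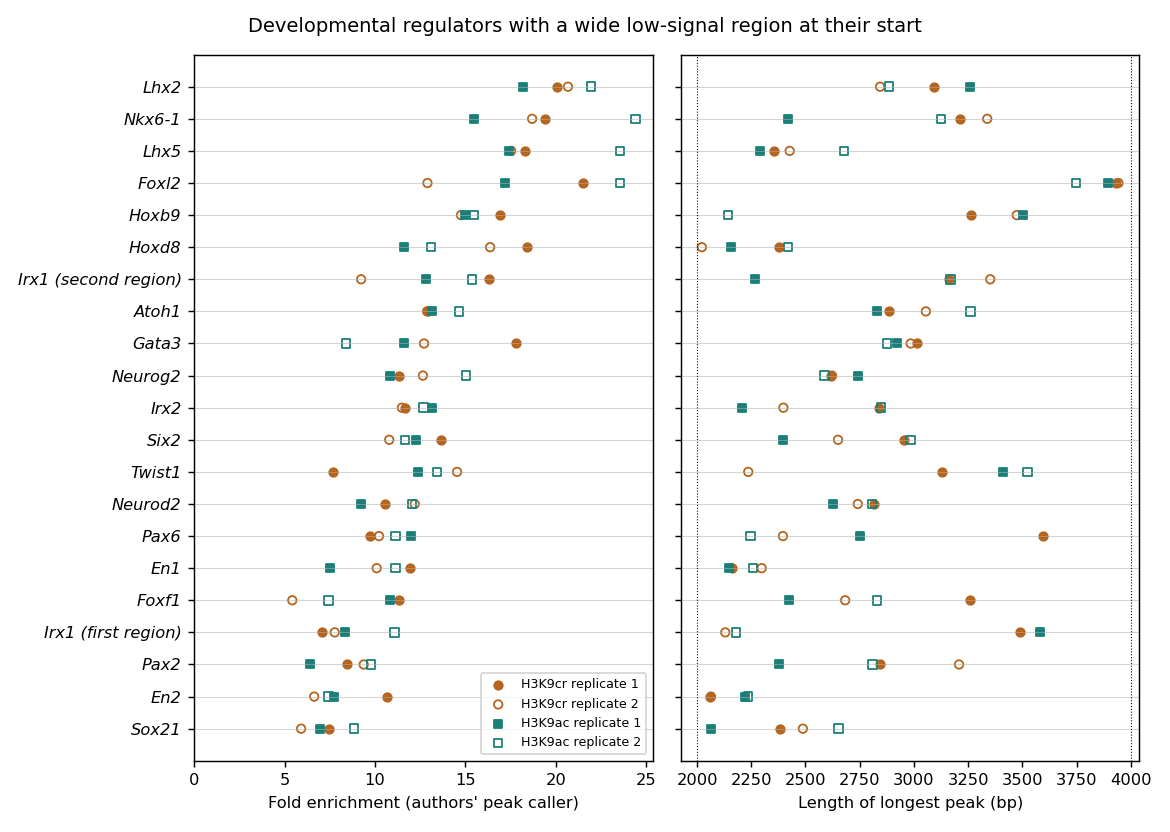
Fold enrichment from the authors' peak caller (left) and length of the longest peak in bp (right) in each library, for developmental regulators with a wide low-signal region at the start. For genes absent from the promoter table, such as Irx1, either end of the gene record counted as a start. Circles are H3K9cr and squares H3K9ac libraries, filled for replicate 1, and dotted lines mark the length limits; genes are ordered by mean fold enrichment, from Lhx2 at the top to Sox21 at the bottom, and Foxl2 has the longest peaks.

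Neuronal effector genes formed a smaller group. Of 70 neurotransmitter and synaptic genes, 5 had a wide low-signal region, or 7.94 of every 100 with a shared region. Gad1, which makes GABA (chr2:70560744-70564248), had longest peaks of 3505 and 2952 bp in the H3K9cr libraries and 2131 and 3245 bp in the H3K9ac libraries. The shortest was in H3K9ac replicate 1, where the peak was split in 2 and both parts together covered 2453 bp. The others encode glutamate receptors, the AMPA receptor subunit Gria3 and the metabotropic receptors Grm3, Grm4 and Grm7. Fold enrichment at Gria3 was 14.7 and 12.0 in the H3K9cr libraries and 12.4 and 14.0 in the H3K9ac libraries, below the list median in each. The potassium channel genes Kcnd3 and Kcnc1 were 2 of 72, or 3.57 of every 100 with a shared region. Kcnc1 had fold enrichments of 19.12 and 18.5 in the H3K9cr libraries and 15.4 and 24.2 in the H3K9ac libraries.

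The signalling lists gave small counts of genes with a wide low-signal region. Of 67 genes listed as ligands there were 3, Inhbb, Fgf13 and Fgf16. This was 5.66 of every 100 with a shared region, against 0.840 over all genes. Of 48 listed receptor and antagonist genes there were 0, a count too small to set apart from the 0.840 per 100 of all genes. Receptor genes outside that list, such as Erbb4 and Gfra2, did have one. Fgf13, an FGF homologue that acts inside the cell (chrX:59132837-59135809), had fold enrichments of 19.7 and 19.2 in the H3K9cr libraries and 18.99 and 25.5 in the H3K9ac libraries. It was at or above the list median in every library, although its pileup was below it. Inhbb (chr1:119419703-119422842) had 15.05 and 12.9 in the H3K9cr libraries and 12.1 and 19.6 in the H3K9ac libraries. Single genes came from the lists of 70 axon guidance genes (Nrp1, a semaphorin co-receptor), 62 extracellular matrix genes (Col14a1, a collagen) and 30 mesoderm genes (T, the Brachyury factor of the primitive streak). At T (chr17:8432398-8435125) fold enrichment was 17.9 and 17.2 in the H3K9cr libraries and 16.7 and 12.0 in the H3K9ac libraries, below the list median in every library.

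None of the 37 pluripotency genes had a wide low-signal region at the start, although 28 had a shared region. The same count of 0 held for 25 endoderm, 32 germline, 18 blood and 14 fibroblast genes. In lists of these sizes a count of 0 cannot be set apart from the 0.840 per 100 of all genes. Among cell type markers, 7 of 8 of undifferentiated embryonal carcinoma had a shared region at the start, the exception being Sox2. So did 3 of 5 fibroblast, 2 of 4 neuron, 0 of 5 blood and 0 of 3 hepatocyte markers, and none of these markers had a wide low-signal region. Of all coding genes 59.3% had a shared region at the start, so these small counts say little about cell identity. Some markers missed the 1 kb window narrowly, with a shared region 1264 bp from Snap25, 1336 bp from Col1a1, 1385.5 bp from Cd3e and 1624.5 bp from Apoa1. A peak at a gene start does not measure expression.

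Developmental regulators were also the nearest genes of many wide low-signal regions away from starts. At any distance, the nearest coding gene belonged to the 3 developmental lists at 42 of the 199 regions (21.1%), against 0.484% of wide strong regions, 5.42% of narrow weak regions and 2.86% of all shared regions. Beyond 1 kb from a start it was 20 of 91 (21.98%), against 1.84%, 5.92% and 5.08% in the same sets. These regions lay 1561.5 bp from Pax8, 2417.5 bp from Sox17, 4533 bp from Msx1, 7209 bp from Pax5 and 39020 bp from Tbx5, among others, examples chosen after their values were seen. Pax, Sox, Msx and Tbx genes encode patterning factors. The nearest gene by position need not be the gene a region acts on.

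Wide low-signal regions also occurred near each other. With a gap of at most 100 kb, 24 of the 199 fell into 12 pairs and no larger run was found. In 7 pairs both regions had the same nearest gene, among them Irx1, Pax2, Pax6, Neurog2, Nkx6-1 and Nxph1. Those before Nxph1 are developmental transcription factors, and Nxph1 encodes a ligand of neurexins. The other pairs were Nr2e1 with Ostm1, Ndufa4l2 with Nxph4, Commd3 with Gm46725, Trp73 with Megf6, and En2 with Cnpy1. The second Pax6 region had fold enrichments of 21.7 and 21.0 in the H3K9cr libraries and 19.8 and 23.6 in the H3K9ac libraries, above those at the Pax6 start in every library. The gap to the nearest other merged region, shared or not, had a median of 5396 bp at wide low-signal regions. It was 14134 bp at wide strong, 6889 bp at narrow weak and 9153 bp at all shared regions.

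Outside the lists, the longest peaks after Foxl2 were at Casz1 (3929 and 3897 bp in the H3K9cr libraries, 3912 and 3712 bp in the H3K9ac libraries), a zinc finger factor of heart and neural development. Nr5a2, a nuclear receptor active in pluripotent cells and liver, followed with 3819 and 3753 bp in the H3K9cr libraries and 3740 and 3932 bp in the H3K9ac libraries, 4738.5 bp from its start. Regions near Fat4, Sv2c, Ntng2, Erbb4 and Lmx1b made up the rest of the 8 longest. Fat4 is an atypical cadherin, Sv2c a synaptic vesicle protein, Ntng2 a netrin-family adhesion protein and Erbb4 a neuregulin receptor, while Lmx1b is a LIM homeobox factor. The lowest pileup percentiles after Sox21 were near Msx1 (26.0), Irx1 (27.3), Cited1 (27.7), Pax2 and Foxb1 (28.7 each). The highest fold enrichment percentiles were near Dct (52.2), Pax6 (52.1), Pde8a and Msx2 (51.5 each), Fgf13 (51.1) and Slc8a1 (51.0).

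Summits of different libraries lay farther apart in bp at wide low-signal regions than at the other classes, but relative to peak length they lay farthest apart at narrow weak regions. The median distance between the summits of a pair of libraries was 81 bp for the H3K9cr replicates and 105 bp for the H3K9ac replicates. Between marks it was 134 and 81 bp for libraries with the same replicate number, and 109 and 180 bp for those with different numbers. Distances between marks therefore overlapped those between replicates. Their mean over the 6 pairs was 115 bp at wide low-signal regions, 17.3 bp at wide strong regions and 43.3 bp at narrow weak regions. As a share of the length of the longest peaks, a measure added after the data had been seen, it was 4.29%, 0.651% and 6.70% in the same classes. Relative to length, then, wide low-signal regions exceeded wide strong regions and not narrow weak ones. The distance exceeded 500 bp at 24.7% of wide low-signal regions on average, and at no more than 7.72% of wide strong and 4.17% of narrow weak regions in any pair. All 4 summits spanned a median of 445 bp at wide low-signal regions and more than 1 kb at 52 of them (26.1%), against 46 bp and 3.62% at wide strong regions. Pairs of libraries share libraries, so no test was made over them.

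The edges of the peaks moved far less than the summits did relative to the other wide class. The left edge differed by a mean of 74.7 bp between libraries at wide low-signal regions and 65.8 bp at wide strong regions, and the right edge by 84.2 and 65.6 bp (means of 6 pair medians). The summit also lay farther from the middle of its peak, by 20.4% of the peak length at wide low-signal regions, 12.0% at wide strong regions and 16.5% at narrow weak regions (means of 4 libraries). The exact two-sided sign-flip permutation test gave p = 0.13 against each class, the smallest possible with 4 libraries. As the libraries score the same regions, this p says little about the difference between classes.

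**Figure D5:**
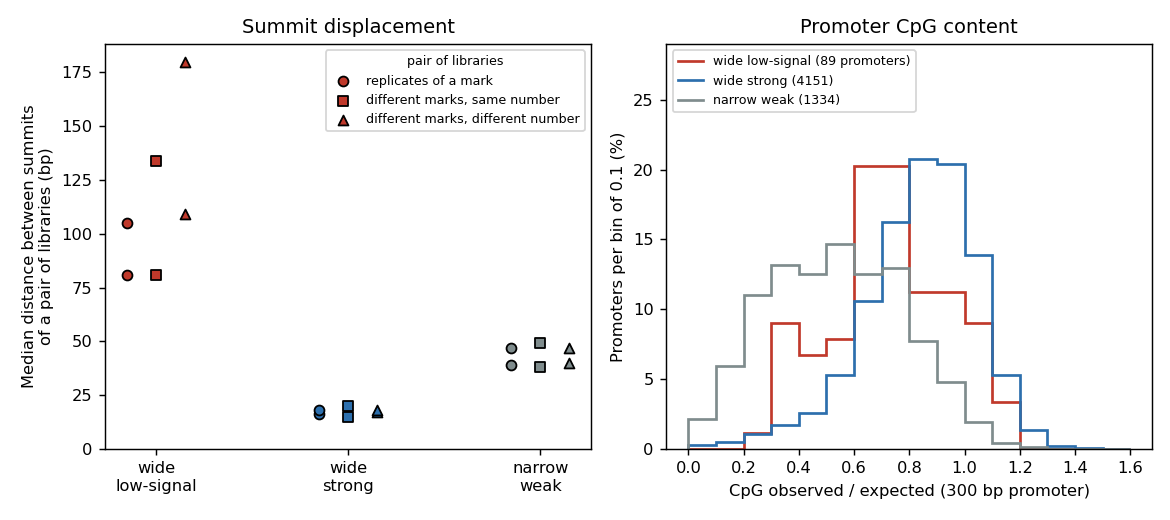
Left, median distance (bp) between the summits of each pair of libraries in 3 classes of shared region, with a marker shape for each kind of pair. Right, percentage of promoters per bin of the observed to expected CpG ratio; wide low-signal regions (red) show the largest summit distances in bp (81 to 180 bp) and CpG ratios (median 0.710) below those of wide strong regions (0.860).

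Peaks at wide low-signal regions were more often broken up. The mean number of peaks per region was 1.05 and 1.09 in the H3K9cr libraries and 1.10 and 1.04 in the H3K9ac libraries, against a mean of 1.01 at wide strong regions. A library had 2 or more peaks at 5.03% and 8.04% of wide low-signal regions (H3K9cr) and at 9.55% and 4.02% (H3K9ac), against 0.97%, 0.94%, 2.10% and 1.29% of wide strong regions. The mean was higher than at wide strong regions in 4 of 4 libraries (exact sign-flip permutation p = 0.13, the smallest possible), and the exact permutation p between marks was 1. The libraries score the same regions, so their agreement says little about the difference between classes. With the pileup limit at the 40th and 60th percentile the mean was 1.10 and 1.04, and whether low pileup accounts for the breaks was not tested. Over all shared regions, 2.91% and 1.92% (H3K9cr) and 5.95% and 3.12% (H3K9ac) had 2 or more peaks. At narrow weak regions the shares were 2.05%, 1.27%, 3.41% and 1.89% in the same libraries. Wide low-signal regions were highest in each library, with the smallest margin over all shared regions in H3K9ac replicate 2. Of the 199 regions, 31 were split in at least 1 library and none in all 4. Near Msx1 the peak was split in replicate 1 of both marks and in neither replicate 2, and at the first Irx1 region it was split in replicate 2 of both marks. Such a split by replicate number was seen at 5 regions, a split in both libraries of 1 mark alone at 3, and a split in 1 library of each mark with different numbers at 4. The most peaks were counted near Nkx6-1, where the 4 libraries held 8 in all, and 7 each were counted near Ccno, 9830107B12Rik, Lhx6, Pax6 and Nxph1.

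No wide low-signal region passed the test for a difference between the marks in covered length, but the length limits largely fixed that outcome. Covered length is the base pairs of a region under peaks of a library. limma was fitted to log2 covered length, centred on each library's median, over all 22972 shared regions (percent called 0, smallest adjusted p = 0.235). The smallest Benjamini-Hochberg adjusted p of a wide low-signal region in this limma fit was 0.736. At an unadjusted p under 0.05, 9 of the 199 (4.52%) were counted, against 5.13% of all shared regions. This count was unstable. It was 20 (10.1%, all regions 5.36%) with a trended limma prior and 16 (8.04%, all regions 5.45%) on base pairs. Without centring it was 5 (2.51%, all regions 6.52%). With 1 library left out in turn, the median log2 difference at wide low-signal regions (H3K9cr minus H3K9ac) ranged from -0.10 to -0.05. Of the 9, 3 were longer in H3K9cr (background 3.72%) and 6 shorter (background 1.41%). The shorter ones included Slitrk4 (log2 difference -0.30, SE 0.07), Gfra2 (-0.29), Shox2 (-0.26) and Twist1 (-0.26), none past the adjusted threshold. The length limits held in every list, which restricts how far the marks could differ at these regions. At the 168 regions split in no library, covered length was the very length used to choose them. There the limits kept any difference under 1 log2 unit before centring, and changes of 1 unit were recovered in 0% of simulated regions. The test could therefore hardly call these regions, and no conclusion on the marks is drawn from it.

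The direction over all wide low-signal regions depended on the centring. The median log2 difference, H3K9cr minus H3K9ac, was -0.07 at wide low-signal regions, -0.06 at wide strong regions and -0.03 at all shared regions with centring, and 0.03, 0.05 and 0.07 in the same sets without it, a shift of 0.10. With centring, both H3K9cr libraries were below both H3K9ac libraries at 79 of the 199 regions (39.7%, background 23.6%) and above at 8 (4.02%, background 13.2%), while wide strong regions stood at 36.0% and 5.14%. Without it, the counts were 21 below (10.6%, background 4.50%) and 42 above (21.1%, background 34.5%). Centring shifts every region alike, so it leaves the order of the class medians as it is, and the differences between classes were not tested.

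Ranks of fold enrichment gave no call either, but the pileup limit restricted that outcome at wide low-signal regions. Fold enrichment follows pileup closely, and pileup was below the median in every list. This limited how far the marks could differ there, so no conclusion on the marks is drawn from this fit. The limma fit to normal scores of the ranks over shared regions called 0 regions (percent called 0, smallest Benjamini-Hochberg adjusted p = 0.99999). At an unadjusted p under 0.05 it counted 4 of the 199 regions (2.01%, background 2.09%). The 4 were all ranked lower in H3K9cr (background 0.858%). They lay near Ntng2 (difference -0.85 normal-score units), Nr2e1 (-0.69), Nkx6-1 (-0.68) and Irx1 (-0.46). For Nkx6-1 this was the other region of its pair, which begins at chr5:101657204. The region at the Nkx6-1 start, described above, had -0.08. For Irx1 it was the first region, and the second had -0.23. The median difference was -0.07 over wide low-signal regions, -0.01 over wide strong regions and -0.00 over all shared regions. With 1 library left out in turn, it ranged from -0.10 to -0.04 over wide low-signal regions and from -0.01 to 0.01 over all shared regions. In simulated data of the same size, changes of 1 unit were recovered in 0% of regions by either fit, and changes of 2 units in 78% for log2 covered length and 60% for ranks. Sizes between these were not simulated.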

How the data were processed

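Native ChIP-seq peak lists of 2 H3K9cr and 2 H3K9ac libraries were used; groups and replicate numbers came from the labels. Bowtie2 2.4.1, MACS2 2.2.7.1 and the build GRCm38 are named in the submitters' processing notes; the options and the read depth are not stated in those notes. A deposited row, per the file headers, holds a peak's position (counted from 1), length, summit, pileup (a coverage signal), fold enrichment (a ratio), and -log10 p-value and -log10 q-value. These per-peak values are the authors' and served only to rank, filter or describe peaks of the same list. The lists held 26096 to 28360 peaks. A weak site below the authors' threshold has no peak, so no value exists for it.

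Peaks overlapping by at least 1 bp were merged with Python 3.11.15, numpy 2.4.6 and pandas 2.3.3. All 199 regions had values in every library, and none was filtered. Gene starts came from RefSeq (GRCm38.p6): the start in a promoter table, which covers 79.9% of the 21896 coding genes, or either end of the gene record otherwise. The nearest start was from the promoter table at 73.9% of wide low-signal, 80.6% of wide strong and 74.1% of narrow weak regions. A region belongs to the coding gene with the nearest start. Libraries, not regions, were the replicates. Positions and peak numbers were compared by exact permutation tests over libraries. Covered length and ranks of fold enrichment were fitted with limma 3.58.1 in R 4.3.3 over all shared regions, with Benjamini-Hochberg adjustment and a threshold of 0.05. The rule was tested on simulated data, where 1000 of 1000 planted regions were found, as were the limma fits.

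Regions named were the 8 longest, the 6 lowest by pileup percentile, the 6 highest by fold enrichment percentile, up to 4 genes per list by length, those nearest the limits, the 4 farthest from genes, the 4 with most peaks and runs within 100 kb. As every run held 2 regions, the 12 pairs were described. A few genes that this rule selects are not reported here. The members and gene lists were chosen with earlier results of these data known. Alternatives changed the pileup, length and q-value limits, the overlap, the number of peaks per list, the gene window, the libraries, the centring and the limma fit.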

Additional observations from a re-analysis of the deposited data

How the results depend on the processing

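The number of wide low-signal regions followed the limits. It was 51 with the 40th percentile of pileup, 540 with the 60th, 59 with lengths from 2500 bp and 522 with lengths from 1500 bp. The other 4 settings of the rule gave 146 to 279, and leaving out 1 library gave 225 to 278. The share of summits at a gene start was 52.0% with the 40th percentile, 58.6% with the 60th, 44.7% from 1500 bp, 54.7% with a stricter q-value and 55.8% with equal numbers of peaks. It was 68.1% with a window of 2.5 kb, 56.5% with all genes, 45.7% to 51.1% with 1 library left out, and 64.2% when a start only had to be covered by the peak, an alternative chosen after seeing the data. The share at wide strong regions ranged from 82.9% to 89.4% over the same settings. Peaks per region moved to 1.10 with the 40th percentile and 1.03 from 2500 bp, and stayed within 1.05 to 1.07 with 1 library left out. The mean summit distance was 344 bp with the 40th percentile and 67.8 bp with the 60th, and 97.7 to 127 bp with 1 library left out. The causes were not tested. List genes numbered 42 with a window of 2.5 kb, against 35, and the median CpG ratio was 0.698, against 0.710. Every limma setting run, each left-out library included, called 0 regions for either measure. The labels do not say that replicate numbers pair the libraries; replicate differences of the marks correlated at 0.135 for covered length and 0.616 for ranks over 22972 regions. With the replicate number as a block, limma also called 0 regions, and an unadjusted p under 0.05 was counted at 6 of the 199 regions for covered length (all shared regions 5.83%) and 12 for ranks (5.92%). Read depth, which is unknown, limits how wide and how weak a called peak can be.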

Other observations

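The X chromosome held 15 of the 199 wide low-signal regions (7.54%), against 2.35% of wide strong regions, 3.09% of narrow weak regions and 3.004% of all shared regions. Per 100 shared regions there were 2.17 on X, 1.49 on chromosome 13, 1.36 on chromosome 2 and 0.152 on chromosome 11. Of the 15, 10 were at a coding gene start. The nearest genes included Gria3, Slitrk4, a neuronal adhesion protein, Cited1, a transcriptional co-regulator, and Bcor, a subunit of a variant Polycomb complex. These shares were not tested.

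Noncoding genes had a start within 1 kb of the middle summit at 40 wide low-signal regions (20.1%), against 15.3% of wide strong regions and 8.15% of narrow weak regions. MicroRNA genes inside them included Mir5130 near Kctd12 and Mir1903 near Nrp1.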
